A study of Mus musculus with 12 samples.

Results

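The 10 genes described here encode proteins that coat the lipid droplet of the hepatocyte, join droplets together, or carry out and restrain the first step of droplet lipolysis. They were chosen by symbol as Plin2, Plin3, Plin4, Plin5, Cidec, Cideb, Pnpla2, Abhd5, G0s2 and Hilpda, and all 10 were found among the 17432 genes of the deposited count table. Livers of 12 male wild-type C57BL/6J mice aged 8 to 10 weeks had been sequenced, 6 from sedentary mice and 6 from mice that ran on a treadmill at 14 m/min for 3 hours after a meal. Meals of all 12 mice had been synchronised for 3 days by feeding in daytime and fasting at night, and both groups were refed before the bout and had no food during it. On each of those 3 days mice of both groups had also been accustomed to the treadmill, with a short run. On the day of the bout the sedentary mice did not run. All livers were taken when the bout ended, and no gene was altered in either group. The comparison asks how 1 bout of postprandial exercise changed liver mRNA. Protein, droplet size and triglyceride content were not analysed here.

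Liver stores fatty acids as triglyceride in lipid droplets, whose surface is covered by perilipins. Plin2 is the main droplet coat protein of hepatocytes, and Plin5 is best known from tissues that burn much fat, where it brings droplets and mitochondria together. Adipose triglyceride lipase, encoded by Pnpla2, removes the first fatty acid of a triglyceride. It is activated by the product of Abhd5, also called CGI-58, and inhibited by the products of G0s2 and Hilpda.

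Positions are on genome build GRCm38 with the GENCODE annotation. Plin4 (gene ID 57435, chr17:56100591-56109803), Plin5 (66968, chr17:56111601-56117596) and Plin3 (66905, chr17:56277476-56292873) are neighbours on the minus strand of chromosome 17, with 1797 bases between Plin4 and Plin5 and 159879 bases between Plin5 and Plin3. Plin2 (11520) is at chr4:86648386-86670060, Cidec (14311) at chr6:113424634-113435760, Cideb (12684) at chr14:55754050-55758458 and G0s2 (14373) at chr1:193272161-193273217, all on the minus strand. Pnpla2 (66853) is at chr7:141455198-141460743, Abhd5 (67469) at chr9:122351608-122381524 and Hilpda (69573) at chr6:29272488-29275446, all on the plus strand. G0s2 lies wholly inside the span of Lamb3 on the other strand. Abhd5 shares 950 bases with A730085K08Rik on the other strand, a gene that is not in the count table.

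The promoters of the 5 genes that passed the test are shown because these 5 moved in opposite directions: Plin4, Plin5 and Pnpla2 rose, and Plin2 and G0s2 fell. Each sequence runs 5′ to 3′ on the strand of the gene, from 250 bases before the RefSeq start to the first 10 bases of the transcript (GRCm38.p6). Capitals mark, on either strand, the letters of 4 searched motifs, namely the nuclear receptor hexamer, the E-box, a TATA-like run and the GC box, which are spelled out after the sequences. Plin2 is at chr4:86670050-86670309 and Plin4 at chr17:56109773-56110032. Plin5 is at chr17:56117539-56117798, Pnpla2 at chr7:141454938-141455197 and G0s2 at chr1:193273179-193273438.
Plin4: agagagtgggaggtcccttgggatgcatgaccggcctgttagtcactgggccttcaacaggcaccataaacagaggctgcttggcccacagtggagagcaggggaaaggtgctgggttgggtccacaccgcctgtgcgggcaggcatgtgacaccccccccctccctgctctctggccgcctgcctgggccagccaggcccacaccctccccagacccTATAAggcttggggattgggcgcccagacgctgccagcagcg
Plin5: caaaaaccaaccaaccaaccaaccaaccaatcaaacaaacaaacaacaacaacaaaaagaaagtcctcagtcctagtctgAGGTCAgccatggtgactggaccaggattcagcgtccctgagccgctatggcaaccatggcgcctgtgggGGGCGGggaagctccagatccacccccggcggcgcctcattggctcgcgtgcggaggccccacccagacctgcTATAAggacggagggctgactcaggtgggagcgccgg
Pnpla2: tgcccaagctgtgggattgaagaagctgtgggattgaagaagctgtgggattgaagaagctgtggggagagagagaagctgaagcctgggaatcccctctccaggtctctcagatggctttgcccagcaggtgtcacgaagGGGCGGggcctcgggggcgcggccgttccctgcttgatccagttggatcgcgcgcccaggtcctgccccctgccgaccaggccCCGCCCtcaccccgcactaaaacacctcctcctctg
Plin2: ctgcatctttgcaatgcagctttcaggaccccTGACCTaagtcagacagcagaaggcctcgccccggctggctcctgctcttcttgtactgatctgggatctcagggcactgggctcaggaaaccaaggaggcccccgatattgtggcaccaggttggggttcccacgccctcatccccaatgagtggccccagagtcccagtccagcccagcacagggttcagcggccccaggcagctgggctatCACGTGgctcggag
G0s2: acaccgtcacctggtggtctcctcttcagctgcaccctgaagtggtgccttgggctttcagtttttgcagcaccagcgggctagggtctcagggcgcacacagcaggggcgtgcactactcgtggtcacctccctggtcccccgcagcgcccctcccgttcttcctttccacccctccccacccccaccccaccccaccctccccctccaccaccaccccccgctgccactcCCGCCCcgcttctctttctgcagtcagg

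All 10 genes matched a promoter of 300 bases, and 9 motifs were searched in these and in all 32851 RefSeq promoters of the mouse. Plin5, Cidec and Hilpda each had 2 promoter records, of which only that nearest the annotated gene start was searched. The hexamer that nuclear receptors bind, AGGTCA, was in Plin5 (170 bases before the start), Plin2 (218) and Abhd5 (69), and in 16.3% of all promoters. The 10 windows searched did not hold the PPAR response element, taken as a direct repeat of that hexamer spaced by a single base. It was in 0.0396% of all promoters. The TATA-like run, TATAA, stood 32 bases before the start of Plin4 and 27 bases before that of Plin5, and also in Cideb (172) and Hilpda (204), against 24.9% of all promoters. The E-box, CACGTG, overlapped the start of Plin2 and was in 7.15% of all promoters. The GC box, GGGCGG, was in 8 of the 10 and in 35.7% of all promoters. None of the 10 windows held the glucocorticoid response element searched (0.00913% of all promoters) or the FOXO site GTAAACA (3.65%). The cAMP response element TGACGTCA (1.79% of all promoters) and the C/EBP site TTGCGCAA (0.183%) were not in them either. These are letter matches in a short window and say nothing of binding.

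The libraries held 18971992 to 19324461 counts in the sedentary group and 18745379 to 19001010 in the exercise group. Of the 17432 genes, 12344 had enough counts to be tested, and edgeR called 5229 of them changed (42.4%, adjusted p under 0.05), 2603 higher and 2626 lower. That even split depends on the scaling, since library size alone gave 1767 higher and 3735 lower, and limma on log2(FPKM + 0.1) gave 1702 and 3714. Hepatocyte markers were abundant in every liver, at a summed 115081 to 155092 CPM (depth-scaled counts, with TMM factors) in sedentary and 139267 to 159913 CPM in exercised mice. Of 6 hepatocyte markers, Alb was called higher after exercise (log2 fold change 0.24, edgeR adjusted p = 0.0253), and all 6 values were above 0. Of 6 stellate cell markers 2 were lower after exercise (Lrat and Des), and of 5 endothelial markers 2 were higher (Lyve1 and Pecam1) and 1 lower (Kdr). None of the 6 macrophage or 4 cholangiocyte markers passed the test. In bulk liver, fewer cells of a type and less RNA per cell cannot be told apart, and the part of these markers in the results below was not tested.

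All 10 droplet genes had enough counts to be tested. After exercise 3 rose (Plin4, Plin5 and Pnpla2), where 21.1% of all genes rose, 2 fell (Plin2 and G0s2), where 21.3% of all genes fell, and 5 did not pass the test (Plin3, Cidec, Cideb, Abhd5 and Hilpda). The called share, 5 of 10, was near the 42.4% of all genes. The median absolute log2 fold change was 0.599, against 0.21 over all genes tested. The same 5 genes had no overlap between the groups (all genes tested, 22.3%), with 3 higher in every exercised liver (all genes, 11.7%) and 2 lower (all genes, 10.6%). Of the 10, 4 were called and changed at least 2-fold, against 3.94% of all genes.

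**Figure D1:**
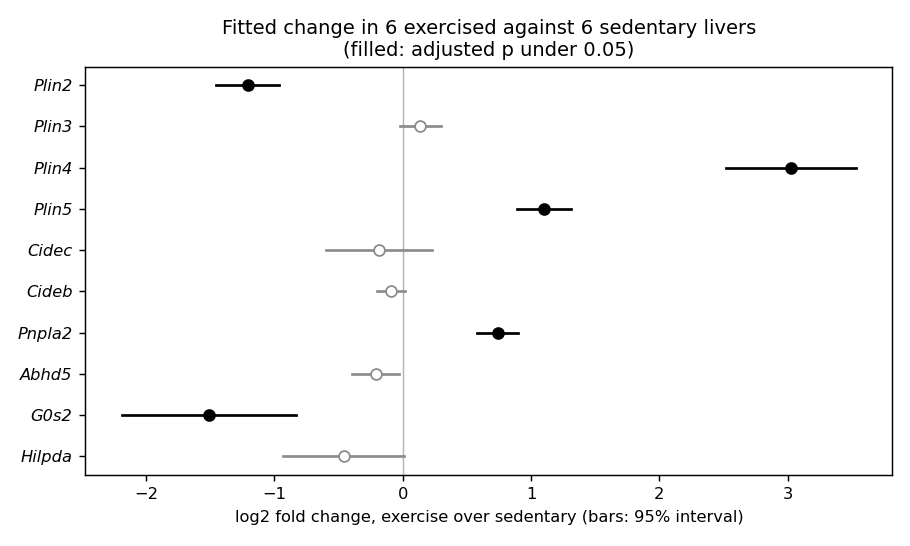
Fitted log2 fold change of the 10 genes in 6 exercised against 6 sedentary livers, with 95% intervals; filled points passed an adjusted p of 0.05. Plin4, Plin5 and Pnpla2 lie above 0 and Plin2 and G0s2 below it, while the intervals of Plin3, Cidec, Cideb and Hilpda cross 0.

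Among the perilipins, Plin4 rose most and Plin2 fell. Plin4, a coat protein that is abundant in adipose tissue and muscle, was at 6.7, 8.13 and 15.9 CPM (lowest, median and highest sedentary liver) and at 50.9, 74.2 and 91.2 CPM after exercise. The lowest exercised liver, replicate 4, was far above the highest sedentary liver, also replicate 4. Plin4 rose by 3.03 ± 0.229 on the log2 scale (SE, edgeR, adjusted p = 2.09e-06), or 8.15-fold, the 7th largest rise among the 12344 genes. Plin4 shares 17 bases with Hdgfl2 on the other strand, which fell by 0.37 on the log2 scale (edgeR adjusted p = 0.000266).

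Plin5 was at 44.7, 57.7 and 77.3 CPM in sedentary livers and at 117, 127 and 145 CPM after exercise. The groups were wide apart, and sedentary replicate 4 was again the highest of its group. The rise was 1.11 ± 0.0996 on the log2 scale (SE, edgeR, adjusted p = 5.48e-07), which is 2.15-fold.

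Plin2 moved the other way. It was at 210.4, 265 and 342 CPM in sedentary livers and at 104, 115 and 134 CPM after exercise. The sedentary livers were also the more spread out, with an SD of 53.3 CPM against 11.7 CPM (n = 6 each). Plin2 fell by 1.21 on the log2 scale (SE 0.116, edgeR adjusted p = 1.75e-06), or 2.31-fold.

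Plin3, the most widely expressed perilipin, which moves between cytosol and droplets, was at 21.9, 29.2 and 31.4 CPM in sedentary and at 28.5, 30.8 and 33.9 CPM in exercised livers. The groups overlapped, and the log2 fold change of 0.14 (95% interval -0.023 to 0.296, edgeR adjusted p = 0.161) did not pass the test. Its counts were fractional in all 12 libraries, as estimated counts are when reads also match elsewhere. Plin1, the perilipin of adipocytes, had 1 count over all 12 livers and was not tested.

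**Figure D2:**
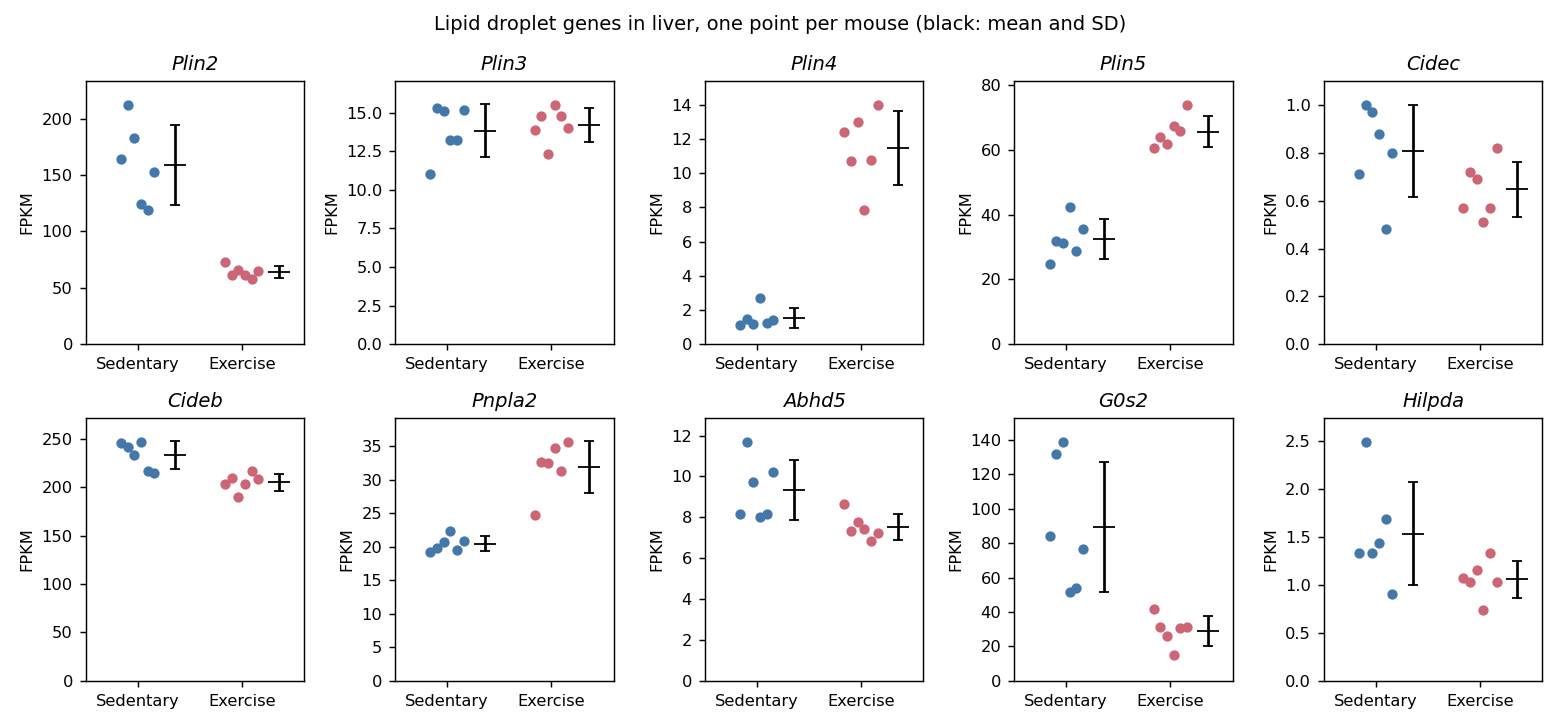
FPKM of each of the 10 genes in 6 sedentary (blue) and 6 exercised (red) livers, 1 point per mouse, with the mean and SD in black; each axis starts at 0. Plin4, Plin5 and Pnpla2 are higher in every exercised liver than in any sedentary liver, and Plin2 and G0s2 are lower.

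These shifts changed the makeup of perilipin mRNA. Levels of different genes are compared here as FPKM, the deposited value scaled for transcript length and depth. Of the summed FPKM of Plin2 to Plin5, Plin2 made up 76.4% ± 5.35 (SD, n = 6; 68.0% to 81.6%) in sedentary and 41.2% ± 2.7 (38.7% to 45.7%) in exercised livers. Plin5 made up 16.1% ± 4.27 and 42.3% ± 2.65, so that it drew level with Plin2. Plin4 went from 0.768% ± 0.361 to 7.37% ± 1.23. Each of these 3 shares separated the groups fully (p = 0.00216 by exact permutation, two-sided, which is the lowest value possible with 6 and 6 livers). The share of Plin3, 6.77% and 9.19%, overlapped in range (p = 0.00433, exact permutation test). The sum itself was 207 ± 35.1 FPKM in sedentary and 155 ± 6.66 FPKM in exercised livers (SD, n = 6), with overlapping ranges (p = 0.00433, exact permutation test). The shares are built from the levels described above, so their separation is no separate evidence. They also add to 100%, so they are not independent of each other.

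**Figure D3:**
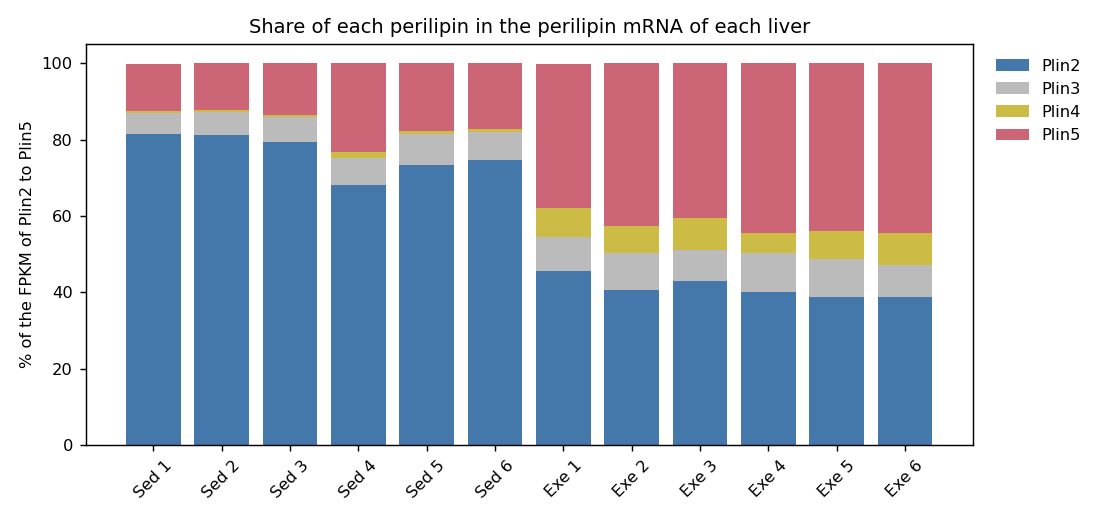
Share of Plin2, Plin3, Plin4 and Plin5 in their summed FPKM, as stacked bars in percent for each of the 12 livers (Sed, sedentary; Exe, exercise). Plin2 holds 68.0% to 81.6% of each sedentary bar and 38.7% to 45.7% of each exercised bar, where Plin5 holds 37.8% to 44.4%.

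Of the lipolysis genes, the lipase rose and its inhibitor G0s2 fell. Pnpla2 was at 47.4, 51.9 and 56.0 CPM in sedentary livers and at 66.7, 87.8 and 95.6 CPM after exercise. Exercise replicate 1, the lowest of its group, was still above every sedentary liver. The rise was 0.74 ± 0.0775 on the log2 scale (SE, edgeR, adjusted p = 1.09e-06), or 1.67-fold.

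G0s2, the G0/G1 switch gene whose product binds and inhibits the lipase, was at 40.0, 60.7 and 109 CPM in sedentary livers. After exercise it was at 12.2, 24.5 and 34.4 CPM, with the highest value in exercise replicate 1. The groups did not overlap, although sedentary livers varied widely (coefficient of variation 40.9%). G0s2 fell by 1.51 on the log2 scale (SE 0.305, edgeR adjusted p = 0.00242), or 2.85-fold. Lamb3, which spans it on the other strand, was at 2.06 and 1.61 CPM (edgeR, adjusted p = 0.142), far below G0s2. Whether reads were counted by strand is not given in the sources used here.

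The coactivator Abhd5 was at 24.0 to 33.6 CPM in sedentary and at 21.4 to 27.9 CPM in exercised livers. The groups overlapped, although all 6 exercised livers were below the sedentary median. Its log2 fold change of -0.21 (95% interval -0.392 to -0.026, before adjustment) missed the threshold (edgeR, adjusted p = 0.0621). It passed without sedentary replicate 1 (-0.25, adjusted p = 0.0301), sedentary replicate 4 (-0.25, 0.0322) or exercise replicate 1 (-0.25, 0.0334), and under library size scaling (-0.31, 0.00968).

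Hilpda, the hypoxia-inducible inhibitor of the lipase, was counted only 13 to 45 times per liver. It was at 0.795, 1.27 and 2.15 CPM in sedentary and at 0.716, 1.02 and 1.17 CPM in exercised livers, with overlapping ranges. The log2 fold change of -0.46 (95% interval -0.929 to 0.011, edgeR adjusted p = 0.109) did not pass, except without sedentary replicate 6 (-0.58, adjusted p = 0.0379).

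Ratios within a liver do not depend on the scaling between libraries. They are built from the values above and are no separate evidence. The FPKM of G0s2 was 2.33 to 6.71 times that of Pnpla2 in sedentary livers (median 4.01) and 0.426 to 1.68 times after exercise (median 0.917). Thus the FPKM of G0s2 exceeded that of Pnpla2 in 6 of 6 sedentary livers and in 1 of 6 exercised livers, replicate 1. This is a ratio of mRNA levels and says nothing of the amounts of the 2 proteins. The mean log2 ratio fell by 2.20 (exact permutation test, two-sided, p = 0.00216, adjusted over 7 ratios 0.00252).

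The ratio of Abhd5 to Pnpla2 went from a median of 0.446 to 0.221, and that of Hilpda to Pnpla2 from 0.0667 to 0.0335. Abhd5 fell relative to the lipase by 0.93 and Hilpda by 1.08 on the log2 scale. Both had p = 0.00216 (exact permutation test, adjusted 0.00252). The test used log2(FPKM + 0.1), where the groups did not overlap. Without the added 0.1, the ranges of Hilpda to Pnpla2 just touched, at 0.043 for the lowest sedentary and 0.0431 for the highest exercised liver.

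The ratio of Plin5 to Plin2 was 0.151 to 0.343 in sedentary and 0.827 to 1.15 in exercised livers. It was above 1 in 4 of 6 exercised livers and in 0 of 6 sedentary livers, and differed by 2.32 on the log2 scale. Plin4 to Plin2 differed by 4.15 and Plin3 to Plin2 by 1.34. These 3 ratios did not overlap between the groups (exact permutation test, p = 0.00216 each, adjusted 0.00252).

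**Figure D4:**
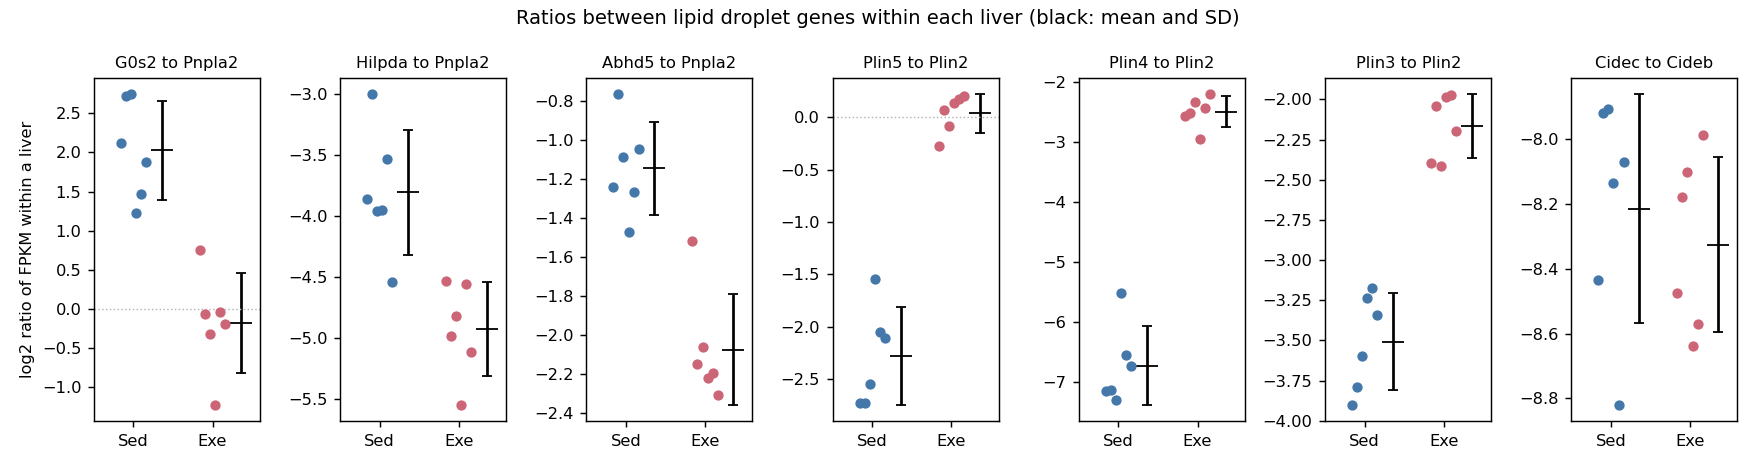
Log2 ratio of the FPKM, with nothing added, of 7 gene pairs within each sedentary (Sed, blue) and exercised (Exe, red) liver, 1 point per mouse, with the mean and SD in black; a dotted line marks a ratio of 1 where it falls in the data. Only Cidec to Cideb and, narrowly, Hilpda to Pnpla2 overlap between the groups, and G0s2 to Pnpla2 lies above the line in all 6 sedentary livers and 1 exercised liver.

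The CIDE proteins join small droplets into larger ones, and Cideb also takes part in loading lipoproteins with lipid in hepatocytes. Cideb had the highest level of the 10 genes in both groups, at 233 ± 14.2 FPKM in sedentary and 205 ± 9.04 FPKM in exercised livers (SD, n = 6). Its TMM-scaled values of 254 ± 13.4 and 239 ± 5.4 CPM overlapped, with a log2 fold change of -0.09 (95% interval -0.199 to 0.016, edgeR adjusted p = 0.161). With library size alone as the scale it was called lower (-0.19, adjusted p = 0.0123). Cideb shares 1451 bases with Nop9 on the other strand, and its counts were fractional in all 12 libraries. Nop9, at 22.5 and 17.9 CPM, was much less abundant.

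Cidec, the CIDE protein typical of adipocytes and fatty liver, was low, with 15 to 33 counts per liver. It was at 1.31 ± 0.296 CPM in sedentary and 1.16 ± 0.237 CPM in exercised livers (SD, n = 6, edgeR, adjusted p = 0.486). The interval of its log2 fold change, -0.597 to 0.23, leaves room for a change in either direction. Its ratio to Cideb did not separate the groups (log2 difference -0.08, exact permutation p = 0.639). Cidea, the remaining CIDE gene, had 1 count over all 12 livers.

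By FPKM the order in sedentary livers was Cideb, Plin2, G0s2, Plin5, Pnpla2, Plin3, Abhd5, Plin4, Hilpda and Cidec. Neighbours whose ranges overlapped were Plin2 and G0s2 (159 and 89.6 FPKM, with Plin2 higher in all 6 livers), Plin3 and Abhd5 (13.8 and 9.32), Plin4 and Hilpda (both 1.53), and Hilpda and Cidec (1.53 and 0.807). After exercise the order was Cideb, Plin5, Plin2, Pnpla2, G0s2, Plin3, Plin4, Abhd5, Hilpda and Cidec. Plin5 (65.6 FPKM) and Plin2 (63.9) were then not separated, nor were Pnpla2 (32.0) and G0s2 (29.3). Ranges also overlapped for G0s2 and Plin3 (14.2), for Plin3 and Plin4 (11.5), for Plin4 and Abhd5 (7.54), and for Hilpda (1.06) and Cidec (0.647).

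The transcript length implied by count and FPKM was nearly the same in both groups, so the FPKM changes did not come with a change in assigned length. It was 1755 and 1761 bases for Plin2, 6120 and 6231 for Plin4, 1891 and 1884 for Plin5, and 2586 for Pnpla2 and 794 for G0s2 in both groups.

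Plin4, Plin5, Pnpla2, G0s2 and Cidec are also abundant in adipocytes or muscle. Of 7 adipocyte markers, Lep was not analysed here, and Adipoq, Plin1, Retn, Cfd and Cidea had 8 counts together over all 12 livers. Fabp4, which capillary endothelium and macrophages also express, was at 11.1 ± 1.54 CPM in sedentary and 16.6 CPM in exercised livers (log2 fold change 0.58, edgeR, adjusted p = 0.000254). The 8 striated muscle markers summed to 11.1 to 23.0 CPM in sedentary and 0.058 to 11.3 CPM in exercised livers, and the 4 with enough counts fell (Myh6, Myh7, Actc1 and Tnnt2). The groups overlapped for all of these but Myh7. In exercised livers Myh6 had a mean of 0.967 and a maximum of 5.8 CPM, so nearly all of it came from the highest liver. Its sedentary range was 4.29 to 10.6 CPM. These muscle markers moved opposite to Plin4 and Plin5 and in the direction of Plin2 and G0s2, and their part in those results was not tested.

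Mice of the same group also differed. By CPM, sedentary replicate 4 had the highest Plin4, Plin5 and Pnpla2 and the lowest Plin2 and G0s2 of its group. By FPKM its Plin2 was second lowest, at 124 against 119 in sedentary replicate 5. With group means removed, r over the 12 livers was highest, among the 45 pairs, at 0.786 for Plin2 with G0s2, 0.779 for Plin2 with Abhd5, 0.686 for Plin4 with Plin5 and 0.606 for Plin5 with Pnpla2. It was lowest at -0.555 for Cideb with Abhd5 and -0.539 for Pnpla2 with G0s2. For Plin4 with Plin5, r was 0.859 among sedentary livers and 0.208 among exercised livers. Without the 2 sedentary livers farthest from the median of Plin4 it was 0.24. These are descriptions, and the 2 genes of a pair share library and scaling.

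Among the 6 sedentary livers, Plin2 and G0s2 had r = 0.972 (exact permutation p = 0.0125, adjusted over 90 tests 0.562) and rho = 0.943 (exact permutation p = 0.0167, adjusted 0.751). Without the 2 livers farthest from the median of Plin2, r was 0.968. Among the 6 exercised livers r was 0.412 (exact permutation p = 0.45, adjusted 0.92) and rho 0.314 (exact permutation p = 0.564, adjusted 0.973), and without 2 livers r was 0.207. The lowest p of the 90 tests of r was for Plin2 with Abhd5 in exercised livers (r = 0.957, exact permutation p = 0.00556, adjusted 0.5). In sedentary livers that pair had r = 0.73 (exact permutation p = 0.119, adjusted 0.81). None of the 45 pairs passed the adjustment in either group. With 6 livers the lowest possible exact p is too high for a single pair to pass over 90 tests. The adjusted values therefore cannot decide whether any pair varied together.

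The genes whose within-group pattern was most like that of each droplet gene were taken from the 8852 tested genes whose mean CPM was 5 or more, by r over the 12 livers with group means removed. They were Map3k6 (0.953) and D17H6S56E-5 (0.927) for Plin5, Rcan1 (0.913) and Elac2 (0.896) for Plin2, and Palld (0.907) and Rtp3 (0.893) for G0s2. For Pnpla2 they were Nudt21 (0.894) and Mapk1ip1 (0.892), and for Plin4 Zmat2 (0.831) and Gm40525 (0.83). They were Adh1 (0.853) and Fbh1 (0.847) for Plin3, Arhgap45 (0.913) and Timm50 (0.896) for Cidec, and Rpp25l (0.946) and Rnf5 (0.838) for Cideb. For Abhd5 they were Ddah1 (0.916) and Prkag1 (0.895), and for Hilpda Whamm (0.857) and Mblac2 (0.828). For each of the 10 genes, the 2 nearest included no other of the 10. Cidec and Hilpda, whose mean CPM was under 5, could not be picked. These r were picked as the highest among 8852 genes, so the choice itself raises them, and they were not tested. Map3k6 rose with Plin5 (log2 fold change 1.66, edgeR, adjusted p = 7.92e-08) and Gm40525 with Plin4 (2.13, adjusted p = 0.00225), whereas Rcan1, Rtp3, Nudt21 and Zmat2 did not pass the test between groups.

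Other genes of droplet biology were followed in 2 lists. Of 15 genes for hydrolysis of neutral lipids other than Pnpla2, 9 fell, none rose and 6 did not pass the test (60.0% called, all genes 42.4%). The median log2 fold change was -0.265, against -0.00275 over all genes, and 14 of 15 values were negative. Pnpla2 was thus higher while no other listed hydrolase was called higher. Pnpla3, a relative of Pnpla2 that binds Abhd5, was at 53.0 ± 31.6 CPM in sedentary and 8.24 ± 1.24 CPM in exercised livers (SD, n = 6; log2 fold change -2.69 ± 0.368 SE, edgeR adjusted p = 0.000197). Ddhd2 (-0.53, adjusted p = 3.54e-05), Ces1f (-0.30, 0.000158) and Lipa, the lysosomal acid lipase (-0.27, 0.00199), also fell. Ces1f belongs to a family of close copies that gave several of the 9 falling genes. The counts of these were fractional, so their values are uncertain and they are not fully separate observations. Counts of Pnpla3 and Ddhd2 were also fractional. Mgll, which cleaves monoglycerides at the end of lipolysis, fell by 0.41 on the log2 scale (edgeR, adjusted p = 0.00462). Lipe, hormone-sensitive lipase, had a log2 fold change of -0.23 that did not pass (adjusted p = 0.078).

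The list for droplet formation and surface had 17 of 19 genes tested, of which 1 rose, 4 fell and 12 did not pass. The called share was 29.4%, below the 42.4% of all genes, and the median log2 fold change was 0.0104. Over all genes tested 21.1% rose and 21.3% fell. Fitm1, which helps to bud droplets from the endoplasmic reticulum, fell by 0.75 on the log2 scale without overlap between the groups (edgeR, adjusted p = 6.73e-05). Acsl3, an acyl-CoA synthetase of nascent droplets, fell by 0.45 (adjusted p = 0.000466), and Pcyt1a, which makes phosphatidylcholine for growing droplets, fell by 0.36 (adjusted p = 0.000837). Spg20, which encodes spartin, rose by 0.36 (adjusted p = 0.00547). Under library size scaling 9 of the 17 were called, 8 of them lower, and 12 of the 15 hydrolysis genes were called, all lower. That scaling called 5502 of the 12344 genes, 3735 of them lower.

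**Figure D5:**
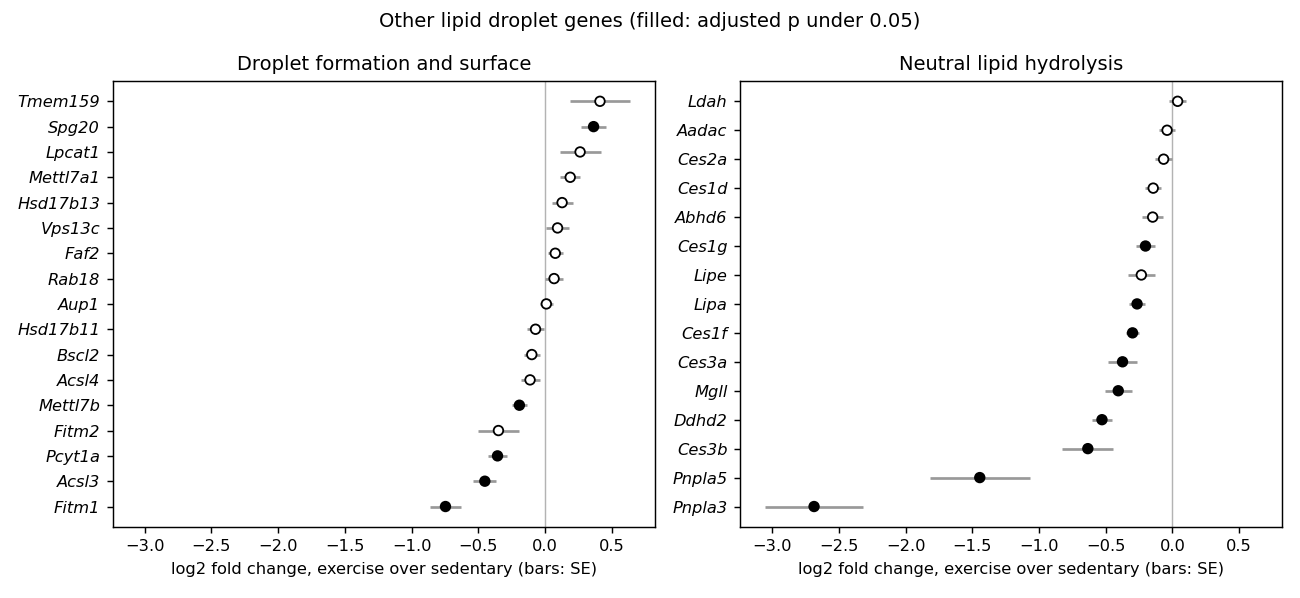
Fitted log2 fold change, with SE, of the tested genes of the droplet formation and surface list (left, 17 genes) and the neutral lipid hydrolysis list (right, 15 genes) in 6 exercised against 6 sedentary livers; filled points passed an adjusted p of 0.05. On the right 14 of 15 points lie below 0, with Pnpla3 lowest at -2.69, and on the left Spg20 is the only filled point above 0.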

How the data were processed

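Libraries of mRNA of 12 livers were made with a BGI mRNA kit. The authors deposited 1 table holding, per gene and liver, an estimated count and FPKM. The deposited estimated counts are unscaled, and 31.3% are not whole. The authors' FPKM values are scaled for length and depth. The submitters' processing notes name Bowtie2 2.3.4.3, RSEM 1.3.1 and mm10, and the annotation, strand setting and sequencing test are not given in the sources used here.

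Groups and replicate numbers came from sample titles. None of 66 library pairs was identical, and over the 30 pairs within groups the mean chi-square per gene was 7.95 to 45.2. Counts, rounded, went into edgeR's quasi-likelihood test (version 4.0.16, R 4.3.3) with TMM factors, filterByExpr at a minimum of 10 counts, and Benjamini-Hochberg adjustment over 12344 genes at 0.05. Exercise was the only term. The spread between mice gave a coefficient of variation of 11.3%. CPM values carry the TMM factors. Ratios used log2(FPKM + 0.1) and exact permutation over all 924 relabellings. The relabellings were enumerated directly, and the procedure was checked against scipy 1.17.1 on random values. Counts per liver make counting error small, except for Cidec and Hilpda.

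The members and lists were chosen with earlier results of these data known, so no edgeR p was adjusted over them alone. The permutation p of the 7 ratios and of the 90 correlation tests were adjusted over those tests only. That adjustment does not correct for the choice of genes. Genes named are all members, in each of the 2 lists the 4 genes with the smallest adjusted p that passed, Plin1, Cidea, Lipe, Mgll and Pnpla3, the 2 nearest genes per member, overlapping genes, and markers that moved. Same-numbered livers did not deviate together (correlations -0.099 to 0.16), so the numbers were not used as pairs. Alternatives were other scalings, filters, DESeq2 1.42.0, limma 3.58.1, a replicate block, a 2-fold threshold and leaving out livers. The edgeR fit was tested on simulated data. Promoters came from RefSeq.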

Additional observations from a re-analysis of the deposited data

Results flagged for a closer look

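Plin4 in sedentary replicate 4 stood far from the rest of its group. It was at 15.9 CPM with the next sedentary liver at 8.64 CPM, a gap of 0.79 of the group's range and past Dixon's limit for 6 livers. It was still below the lowest exercised liver. Of the 20 groups of 6 livers checked, this was the 1 that passed the limit, and chance gives about 1 in 20. By CPM the same mouse had the highest Plin5 and Pnpla2 and the lowest Plin2 and G0s2 of the sedentary group, while by FPKM sedentary replicate 5 was lower in Plin2. No cause was tested.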

How the results depend on the processing

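The 5 called genes (Plin2, Plin4, Plin5, Pnpla2, G0s2) kept their direction and call under 3 other scalings, 2 other filters, DESeq2, limma-voom, limma on FPKM, the replicate block and leaving out livers. At a 2-fold threshold Pnpla2 lost the call and 4 were left. With 1 liver left out, log2 fold changes ranged from -1.27 to -1.13 for Plin2, 2.95 to 3.26 for Plin4, 1.04 to 1.20 for Plin5, 0.71 to 0.81 for Pnpla2 and -1.64 to -1.33 for G0s2. The count of called members was 4 to 7 over the other settings. Abhd5 gained the call with library size alone (-0.31), upper quartile (-0.23), limma on log2(FPKM + 0.1) (-0.29) and + 1 (-0.27), and without exercise replicates 1 and 3 (-0.30). With 1 liver left out Abhd5 ranged from -0.25 to -0.15, and passed in 3 of 12 fits. Cideb gained it with library size alone (-0.19) and limma on log2(FPKM + 0.1) and + 1 (-0.19 each). Hilpda ranged from -0.58 to -0.28 with 1 liver left out, and passed in 1 of 12 fits. The median of all genes was -0.0985 with library size alone and -0.0932 and -0.0661 with limma on FPKM, against -0.00275. The droplet formation list had 9 calls with library size alone, 8 and 8 with limma on FPKM, and 0 at 2-fold, and the hydrolysis list 2 at 2-fold. Over all genes 486 were called at 2-fold (290 higher, 196 lower). The ratio of Cidec to Cideb turned to 0.056 with log2(FPKM + 1), and stayed unseparated (exact permutation p = 0.472). Causes were not tested.

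The replicate block gave 4956 calls over all genes and 5 members, with Plin4 at 3.05 and G0s2 at -1.47, and changed no member's call. Of the sedentary livers, 2 of 6 correlated best with their own number. Leaving out livers for the share of Plin2 (difference -36.9 to -34.2 percentage points) was chosen after seeing the data. The low counts of Cidec and Hilpda limit what can be seen of them.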
